A study of Mus musculus with 39 samples.

Results

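Globin genes encode the protein chains of haemoglobin, the oxygen carrier of red cells, and 7 of them were followed here as a trace of red-cell RNA in macrophages sorted from the brains of C57Bl/6 mouse embryos. They were chosen by name: the embryonic genes Hbb-y, Hbb-bh1 and Hba-x, and the adult genes Hbb-bs, Hbb-bt, Hba-a1 and Hba-a2. These are 7 of the 53379 genes in the count table, and all 7 were among the 22061 genes kept by the filter on low counts, the embryonic ones through the earlier stages. RNA was sequenced from BAM, the border-associated macrophages of the meninges, choroid plexus and vessel surroundings, and from microglia, the macrophages of the brain tissue itself. Both populations were sorted at E10.5, E11.5, E12.5, E14.5, E16.5 and E18.5, with the day of the plug counted as E0.5. In that order the BAM groups held 4, 3, 3, 3, 3 and 4 libraries (20 in all) and the microglia groups held 4, 3, 3, 2, 3 and 4 (19 in all). Every group came from the same strain, and the labels name no mutation or treatment. They give neither the gates of the sort nor the litter of a library, so the p-values below speak of the spread between these libraries and no further.

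Haemoglobin is built from alpha-like and beta-like chains, each holding a haem group. The first, primitive red cells of the mouse arise in the yolk sac and carry the embryonic chains zeta (Hba-x), epsilon-y (Hbb-y) and beta-h1 (Hbb-bh1) together with adult alpha chains. Definitive red cells from the fetal liver carry adult alpha chains (Hba-a1 and Hba-a2) and adult beta chains (Hbb-bs and Hbb-bt), and the passage from the embryonic to the adult set is known as the haemoglobin switch. Macrophages elsewhere in the body engulf aged red cells and recycle their haem.

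In GRCm38 the beta-like genes lie on the minus strand of chromosome 7, with the embryonic genes upstream of the adult ones: Hbb-y at chr7:103851749-103853216, Hbb-bh1 at chr7:103841637-103843164, Hbb-bs at chr7:103826534-103828096 and Hbb-bt at chr7:103812524-103813996. The alpha-like genes lie on the plus strand of chromosome 11, with Hba-x at chr11:32276400-32278116, Hba-a1 at chr11:32283511-32284465 and Hba-a2 at chr11:32296489-32297298. RefSeq promoter windows of 300 bases around the gene start (GRCm38.p6) were matched for 6 of the 7 genes. An embryonic and an adult window of each chain are shown because the members of each pair moved in opposite directions over the stages. They read 5′ to 3′ on the strand of the gene, and the capitals mark the matches to 5 short motifs searched on both strands, which were AGATAA, known from Gata factors, CCNCNCCC, known from CACCC boxes, the CCAAT box, the TATA box motif TATAAA and TGACCA.
Hbb-y, chr7:103853158-103853457, minus strand: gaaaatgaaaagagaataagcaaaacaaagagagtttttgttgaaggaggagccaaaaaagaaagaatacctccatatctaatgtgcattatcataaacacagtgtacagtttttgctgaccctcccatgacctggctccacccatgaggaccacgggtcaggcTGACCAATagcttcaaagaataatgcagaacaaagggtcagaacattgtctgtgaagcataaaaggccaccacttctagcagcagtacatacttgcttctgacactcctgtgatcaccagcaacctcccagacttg
Hbb-bs, chr7:103827879-103828178, minus strand: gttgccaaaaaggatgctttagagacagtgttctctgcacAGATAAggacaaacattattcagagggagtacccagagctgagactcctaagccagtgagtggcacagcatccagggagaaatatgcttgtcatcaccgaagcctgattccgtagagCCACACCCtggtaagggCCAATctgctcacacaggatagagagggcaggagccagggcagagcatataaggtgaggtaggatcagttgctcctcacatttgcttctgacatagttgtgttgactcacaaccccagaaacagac
Hba-x, chr11:32276350-32276649, plus strand: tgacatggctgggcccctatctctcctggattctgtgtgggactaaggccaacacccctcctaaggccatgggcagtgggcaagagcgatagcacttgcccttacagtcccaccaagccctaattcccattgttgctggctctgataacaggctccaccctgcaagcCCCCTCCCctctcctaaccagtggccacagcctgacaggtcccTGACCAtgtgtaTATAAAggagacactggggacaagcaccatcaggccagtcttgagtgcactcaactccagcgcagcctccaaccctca
Hba-a1, chr11:32283422-32283721, plus strand: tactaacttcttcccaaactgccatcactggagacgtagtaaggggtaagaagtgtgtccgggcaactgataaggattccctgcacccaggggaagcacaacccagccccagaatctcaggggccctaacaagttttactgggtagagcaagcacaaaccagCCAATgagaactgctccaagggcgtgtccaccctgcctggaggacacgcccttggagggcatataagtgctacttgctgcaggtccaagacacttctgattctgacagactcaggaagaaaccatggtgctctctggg

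The Hbb-y window held TGACCA 86 bases before the gene start, overlapping a CCAAT box at 83 bases. TGACCA also stood 40 bases before the start of Hba-x and in no adult window, and 13.6% of the 32851 promoter windows of the table hold it. The Hbb-bs window held CCNCNCCC, the core of the CACCC box that Klf1 is known to bind, 93 bases before the start, a CCAAT box at 76 bases and the Gata-type motif AGATAA at 210 bases. CCNCNCCC occurs in 49.5%, CCAAT in 37.4% and AGATAA in 11.2% of all windows, so a match is common. Hba-x held CCNCNCCC at 83 bases and TATAAA, found in 13.6% of windows, at 28 bases. Hba-a1 held only a CCAAT box, 88 bases before the start. Its window shared an unbroken run of 297 bases with that of Hba-a2, whereas the longest run shared by the Hbb-bs and Hbb-bt windows was 14 bases.

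Libraries held 10.7 to 47.2 M counts. In the exon sequences, 45.53% of the windows of 1 read length of Hbb-bs and 50.63% of those of Hbb-bt occurred in the other gene, as did 56.97% of those of Hba-a1 and 73.01% of those of Hba-a2. The split of counts within each of these pairs is therefore uncertain, while Hbb-y, Hbb-bh1 and Hba-x shared no such window with any other globin. How shared reads were counted is not given. The summed level of each adult pair against the embryonic genes, and every share built on it, is thus uncertain as well. All libraries of E10.5 and E11.5 and 1 library of each population at E18.5 carry a name of library series R10, and every other library is of series R8. The step E11.5 to E12.5 is also the step between these series. The labelled populations carried their markers: 8 of 8 BAM markers were higher and 8 of 8 microglia markers lower in BAM over the 6 stages. The 7 globins together made up at most 0.0294% of the counts of any BAM library and 0.0698% of those of any microglia library.

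Hbb-y, which encodes the epsilon-y chain, was the most abundant globin per length up to E12.5 in both populations and had almost gone by E16.5. In BAM it stood at 24.2, 19.1, 41.4 and 20.1 CPM (counts per 1000000 counts of the library) at E10.5, 32.2, 58.3 and 29.2 at E11.5, and 184, 165 and 78.2 at E12.5. Later BAM libraries held 6.41, 31.1 and 55.5 CPM at E14.5, 0.317, 0.569 and 0.419 at E16.5, and 0.268, 0.217, 0.619 and 0.200 at E18.5. The E12.5 libraries lay above those of every other stage, and all BAM libraries from E16.5 on lay below all earlier ones. In RNA from sorted populations, fewer red cells or red-cell fragments and less globin RNA in each cannot be told apart.

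Microglia held 22.4, 21.8, 67.6 and 19.7 CPM of Hbb-y at E10.5, 49.96, 94.99 and 86.4 at E11.5, and 334, 440 and 348 at E12.5. At E14.5 they held 61.2 and 101 CPM, at E16.5 0.802, 0.800 and 1.10, and at E18.5 0.425, 0.748, 0.127 and 0.102. As in BAM, the E12.5 libraries were the highest and those from E16.5 on the lowest, and at E12.5 every microglia library lay above every BAM library. E18.5 against E10.5, Hbb-y fell by 6.30 ± 0.60 in BAM (log2 fold change ± SE, adjusted p = 2.28e-10) and by 6.60 ± 0.62 in microglia (adjusted p = 1.89e-10; edgeR's quasi-likelihood test with Benjamini-Hochberg adjustment over all 22061 genes, as throughout). Set against E12.5, Hbb-y at E18.5 fell by 8.66 ± 0.63 in BAM and fell by 10.002 ± 0.67 in microglia.

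Hbb-bh1, which encodes beta-h1, the earliest beta-like chain of primitive red cells, did not share the E12.5 peak of Hbb-y in BAM. BAM held 12.02, 5.92, 17.1 and 13.2 CPM at E10.5, 7.95, 7.51 and 7.22 at E11.5, 5.90, 12.47 and 5.26 at E12.5, and 0.298, 0.446 and 0.131 at E14.5. It was at 0 in all 3 BAM libraries of E16.5 and summed to 4 counts over the 4 BAM libraries of E18.5. Microglia held 11.4, 10.498, 26.2 and 10.8 CPM at E10.5, 9.69, 14.1 and 22.4 at E11.5, 11.46, 38.5 and 26.0 at E12.5, and 0.561 and 0.927 at E14.5.

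In both populations Hbb-bh1 had thus dropped by E14.5, a stage at which Hbb-y was still at 6.41 CPM or more in every library. Microglia held 6 counts in all at E16.5 and 0 in all 4 libraries at E18.5. From E10.5 to E18.5 Hbb-bh1 was at least 346.2-fold lower in microglia, with 3 counts over the E18.5 group as the bound (adjusted p = 2.46e-10). That bound takes counts as independent. In BAM it fell by 7.83 ± 0.74 on the log2 scale (adjusted p = 1.04e-09).

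Hba-x, the gene of the alpha-like zeta chain, had a course like that of Hbb-y. BAM held 9.91, 7.33, 21.4 and 11.2 CPM at E10.5, 14.4, 12.8 and 11.4 at E11.5, 24.3, 27.0 and 21.2 at E12.5, and 1.19, 3.90 and 7.70 at E14.5. Microglia held 11.95, 10.498, 28.9 and 7.86 CPM at E10.5, 16.1, 29.3 and 33.4 at E11.5, 38.6, 87.4 and 87.1 at E12.5, and 5.71 and 11.8 at E14.5. At E16.5 and E18.5 no library of either population passed 0.344 CPM. The populations did not overlap at E11.5 and E12.5, where all microglia libraries were higher. E18.5 against E10.5, Hba-x fell by 6.19 ± 0.65 in BAM (adjusted p = 2.08e-09) and by 7.30 ± 0.73 in microglia (adjusted p = 6.94e-10).

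**Figure D1:**
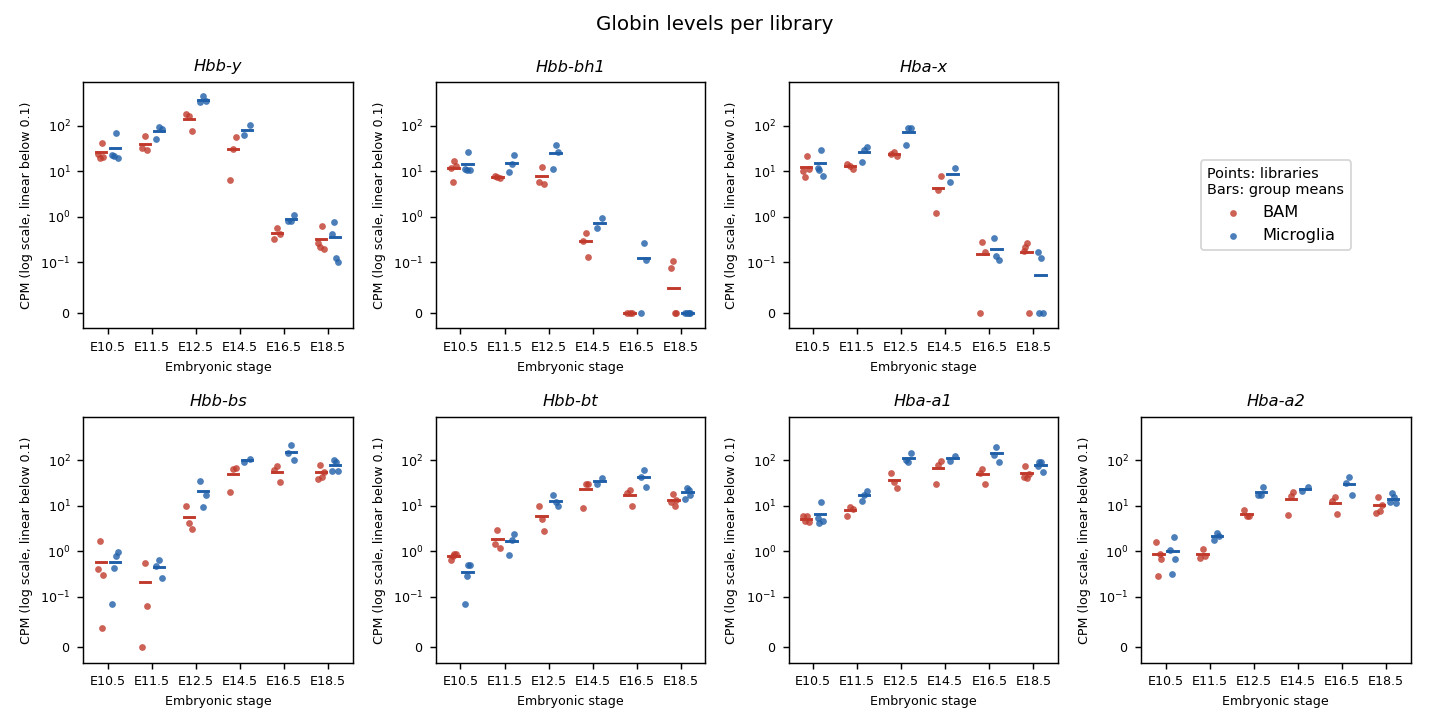
Level of each of the 7 globins in every library (CPM on a log axis) at the 6 stages, with BAM left of microglia at each stage and lines through the group means. The 3 embryonic genes are highest from E10.5 to E12.5 and near 0 from E16.5, while the 4 adult genes climb up to E14.5 or E16.5.

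The adult beta genes ran the other way. Hbb-bs, which encodes an adult beta chain, stood in BAM at 0.407, 1.66, 0.0389 and 0.298 CPM at E10.5, 0, 0.546 and 0.0811 at E11.5, and 9.83, 4.13 and 3.08 at E12.5. Later BAM libraries held 20.2, 65.5 and 69.2 CPM at E14.5, 60.8, 75.3 and 33.7 at E16.5, and 38.9, 81.3, 44.0 and 57.0 at E18.5. All BAM libraries from E14.5 on lay above all those of E12.5, and these above all earlier ones.

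Microglia held 0.0854, 0.434, 0.803 and 0.993 CPM of Hbb-bs at E10.5, 0.481, 0.657 and 0.263 at E11.5, and 36.1, 9.52 and 17.8 at E12.5. They held 91.1 and 109 at E14.5, 147, 216 and 102 at E16.5, and 58.8, 101, 92.0 and 60.0 at E18.5. Every microglia library of E14.5 and E16.5 lay above every BAM library of the same stage, whereas at E18.5 the populations overlapped. E18.5 against E10.5, Hbb-bs rose by 6.45 ± 0.63 in BAM (adjusted p = 4.47e-10) and by 7.10 ± 0.65 in microglia (adjusted p = 9.93e-11). Against E12.5 it rose by 3.39 ± 0.59 in BAM (adjusted p = 0.000103) and by 2.06 ± 0.54 in microglia (adjusted p = 0.0146). The microglia call was lost without replicate 2 of microglia E12.5 (1.71, adjusted p = 0.110) or without its replicate 3 (1.88, adjusted p = 0.111).

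Hbb-bt, the second adult beta gene, was higher than Hbb-bs at E11.5 per length and lower from E14.5 on. Its means in BAM were 0.811 ± 0.118, 1.87 ± 0.931, 6.03 ± 3.63, 23.1 ± 12.1, 17.3 ± 6.28 and 13.3 ± 3.395 CPM in order of stage (SD over the group sizes above). In microglia they were 0.351 ± 0.206, 1.67 ± 0.766, 13.2 ± 3.67, 35.9 ± 7.32, 42.8 ± 17.5 and 19.8 ± 4.77 CPM. At E10.5 the BAM libraries held 0.645 to 0.895 CPM and the microglia libraries 0.0854 to 0.516, so that Hbb-bt was the only globin whose BAM libraries all lay above the microglia libraries at a stage. That difference did not pass (log2 fold change 1.16 ± 0.48, adjusted p = 0.188). E18.5 against E10.5, Hbb-bt rose by 4.01 ± 0.45 in BAM (adjusted p = 6.20e-09) and by 5.83 ± 0.49 in microglia (adjusted p = 1.82e-11).

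Adult alpha RNA was present at E10.5, where every library held 4.24 CPM or more of Hba-a1. Hba-a1 stood in BAM at 6.15, 4.58, 5.95 and 4.52 CPM at E10.5, 6.06, 9.69 and 8.52 at E11.5, and 52.0, 33.2 and 25.1 at E12.5. Later BAM libraries held 30.7, 80.3 and 97.6 CPM at E14.5, 52.7, 66.1 and 30.3 at E16.5, and 43.6, 75.8, 41.4 and 49.2 at E18.5. From E12.5 on the BAM stages overlapped each other, and all lay above E10.5 and E11.5.

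Microglia held 5.34, 4.24, 12.1 and 4.65 CPM of Hba-a1 at E10.5, 12.6, 17.5 and 21.4 at E11.5, and 104, 92.1 and 143 at E12.5. They held 98.8 and 128 at E14.5, 135, 202 and 92.9 at E16.5, and 73.9, 93.0, 93.3 and 57.1 at E18.5. The microglia libraries lay above all BAM libraries of their stage at E11.5, E12.5, E14.5 and E16.5. E18.5 against E10.5, Hba-a1 rose by 3.28 ± 0.35 in BAM (adjusted p = 2.08e-09) and by 3.65 ± 0.35 in microglia (adjusted p = 2.83e-10).

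Hba-a2, whose counts cannot be cleanly parted from those of Hba-a1, followed it at a lower level, with group means of 0.864 to 14.4 CPM in BAM and 1.04 to 30.8 CPM in microglia. It rose by 3.53 ± 0.47 in BAM (adjusted p = 1.94e-07) and by 3.85 ± 0.47 in microglia (adjusted p = 4.63e-08) at E18.5 against E10.5. The group means of the ratio of Hba-a1 to Hba-a2 counts ran between 4.32 and 9.06 and between 4.74 and 7.91 in BAM and microglia.

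At E18.5 against E10.5, then, 4 of 7 globins were called higher and 3 of 7 lower in BAM, where 22.8% of all tested genes were called higher and 14.8% lower. The counts in microglia were the same, 4 higher and 3 lower, against 20.9% and 14.4% of all genes. The 4 genes called higher were the adult ones and the 3 called lower the embryonic ones in each population. The median log2 fold change of all tested genes was 0.29 in both. Against E12.5, Hbb-bs was the only globin called higher at E18.5 in either population, against 5.24% of all genes called higher in BAM and 4.01% in microglia. Hbb-bt passed in BAM without replicate 1 of BAM E12.5 (1.68, adjusted p = 0.0217) and with DESeq2 (1.26, adjusted p = 0.0290). The 3 embryonic genes were called lower, against 5.32% of all genes in BAM and 2.74% in microglia. The difference between the changes of BAM and microglia from E10.5 to E18.5 was called for none of the 7 globins, against 6.63% of all genes. Hbb-bt had a difference of −1.82 ± 0.61 (BAM minus microglia change, unadjusted p = 0.00548, adjusted p = 0.0702), and 2 of the 7 had an unadjusted p under 0.05. That of Hbb-bt passed with DESeq2 (adjusted p = 0.0399), with no expression filter (adjusted p = 0.0408) and with the compared groups alone (adjusted p = 0.0438).

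Neighbouring stages place the changes more closely. From E10.5 to E11.5 no globin was called in BAM (4.42% of all genes, with 1 globin, Hbb-bt, at an unadjusted p under 0.05 and 0 called by DESeq2), and Hbb-bt (2.25 ± 0.49) and Hba-a1 (1.402 ± 0.35) were called higher in microglia, where 5.24% of all genes were. Both calls were lost when these 2 microglia groups were fitted alone (adjusted p = 0.1602 and 0.0569). Without replicate 3 of microglia E10.5, Hbb-y (1.89, adjusted p = 0.00425) and Hba-a2 (1.70, adjusted p = 0.0277) were called higher as well. Between E11.5 and E12.5, which is also the step between library series, BAM gained in Hbb-y (1.72 ± 0.48), Hbb-bs (4.41 ± 0.81), Hba-a1 (2.06 ± 0.38) and Hba-a2 (2.77 ± 0.53), against 2.79% of all genes called higher. The Hbb-y call in BAM was lost without replicate 1 or 3 of BAM E11.5 or replicate 1 or 2 of BAM E12.5, where its log2 fold change stood at 1.504 to 1.58. Hbb-bt gained a call in BAM without replicate 2 of BAM E11.5 (2.05, adjusted p = 0.0404) or replicate 3 of BAM E12.5 (1.86, adjusted p = 0.0269). With DESeq2, 5 globins were called higher in BAM at this step, against the 4 of the main fit. The Hbb-bs call was lost when the 2 BAM groups were fitted alone (4.55, adjusted p = 0.0645). Microglia gained in the same 4 and in Hbb-bt (Hbb-y 2.15 ± 0.48, Hbb-bs 5.27 ± 0.71, Hbb-bt 2.84 ± 0.48, Hba-a1 2.58 ± 0.38, Hba-a2 3.07 ± 0.51), against 5.83% of all genes.

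The next steps carried the losses. From E12.5 to E14.5, within series R8, Hbb-y (−2.22 ± 0.49), Hbb-bh1 (−4.74 ± 0.71) and Hba-x (−2.53 ± 0.57) were called lower in BAM, where 0.485% of all genes were, and Hbb-bs (3.21 ± 0.60) and Hbb-bt (1.95 ± 0.46) higher, where 0.299% were. None of these 5 passed when the 2 BAM groups were fitted alone. Hbb-y was lost without replicate 2 of BAM E12.5 or replicate 1 or 2 of BAM E14.5 (−2.24 to −1.75), and Hba-x without replicate 2 or 3 of BAM E12.5 or replicate 1 or 2 of BAM E14.5 (−2.60 to −2.10). Hbb-bs was lost without replicate 2 or 3 of BAM E12.5 (3.06 and 2.92), and Hbb-bt without either of these or replicate 2 or 3 of BAM E14.5 (1.62 to 1.90). The Hbb-bh1 call held without any 1 library of these groups. In microglia, with 2 libraries at E14.5, Hbb-bh1 was called lower (−5.16 ± 0.81, adjusted p = 0.00503), against 0.0136% of all genes, and the call was lost without either of those libraries (−4.77 and −5.51, adjusted p = 0.341 and 0.274). Without replicate 1 of microglia E12.5, Hba-x (−3.39, adjusted p = 0.0443) was called lower as well, as it was with DESeq2 (adjusted p = 0.00110). With no expression filter Hbb-y (−2.24, adjusted p = 0.00473) and Hba-x (adjusted p = 0.00267) were also called lower and Hbb-bs higher (2.22, adjusted p = 0.0127), and with the 2 microglia groups fitted alone Hbb-bh1 was not called (adjusted p = 0.0787).

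From E14.5 to E16.5 the remaining embryonic transcripts all but disappeared. Hbb-y fell by 6.03 ± 0.67 in BAM (adjusted p = 4.16e-07) and by 6.37 ± 0.66 in microglia (adjusted p = 7.05e-07), and Hba-x by 4.64 ± 0.75 in BAM and 5.33 ± 0.78 in microglia. Hbb-bh1 was also called lower in BAM, at least 6.382-fold with 3 counts over the E16.5 group as the bound, but that call was lost without replicate 1 or 2 of BAM E14.5 or any library of BAM E16.5 (adjusted p from 0.0814 to 0.191). These were 3 and 2 of 7 globins in BAM and microglia, against 0.254% and 0.24% of all genes called lower. From E16.5 to E18.5 no globin was called in either population, against 0.068% of all genes in BAM and 0.517% in microglia; none in BAM and 4 in microglia had an unadjusted p under 0.05, and DESeq2 also called 0 in each.

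The switch is free of the total amount of globin RNA when read as a share within each chain. The embryonic share of beta-like counts, Hbb-y plus Hbb-bh1 over all 4 beta-like genes, averaged 95.8 ± 3.27%, 96.0 ± 0.900%, 93.0 ± 2.23%, 26.4 ± 8.78%, 0.640 ± 0.280% and 0.610 ± 0.397% in BAM from E10.5 to E18.5. In microglia it averaged 97.8 ± 1.81%, 97.8 ± 0.0968%, 91.8 ± 4.63%, 37.1 ± 4.89%, 0.583 ± 0.312% and 0.353 ± 0.268% (SD). All libraries up to E12.5 lay at 86.6% or more, those of E14.5 between 18.6 and 40.6%, and all later ones at 1.14% or less. E18.5 and E10.5 did not overlap in either population, nor did E18.5 and E12.5 (exact permutation test, two-sided, p = 0.0286 in each of the 4 comparisons, the smallest these group sizes allow and 0.0286 after Benjamini-Hochberg adjustment over the 4).

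The alpha-like chains switched from a lower start. The share of Hba-x in alpha-like counts averaged 65.1 ± 8.72%, 59.1 ± 7.75%, 36.7 ± 6.80%, 4.37 ± 1.57%, 0.266 ± 0.237% and 0.281 ± 0.224% in BAM, and 65.4 ± 4.27%, 56.9 ± 3.65%, 34.2 ± 10.2%, 5.82 ± 1.81%, 0.120 ± 0.0765% and 0.0785 ± 0.0965% in microglia. At E12.5 it was 36.7 and 34.2% in BAM and microglia, while the beta-like share was still 93.0 and 91.8%. Set against E10.5 or E12.5, the E18.5 libraries gave the same exact permutation p of 0.0286 in both populations.

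The same shares were then set against each other between the populations. At E14.5 the beta-like share was 18.6, 24.8 and 35.9% in the BAM libraries and 33.7 and 40.6% in the microglia libraries, which overlapped (difference −10.7 percentage points, exact permutation p = 0.3, two-sided, smallest possible 0.1), and without 1 library the difference ran from −15.4, without replicate 3 of BAM E14.5, to −6.75, without replicate 1 of BAM E14.5. At E11.5 the BAM libraries, at 94.97 to 96.6%, lay below the microglia libraries, at 97.6 to 97.8% (exact p = 0.1, the smallest 3 against 3 allow). Of the 12 comparisons of a share between populations, 6 for each chain, none passed, and the adjusted p-values ran from 0.557 to 0.943.

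**Figure D2:**
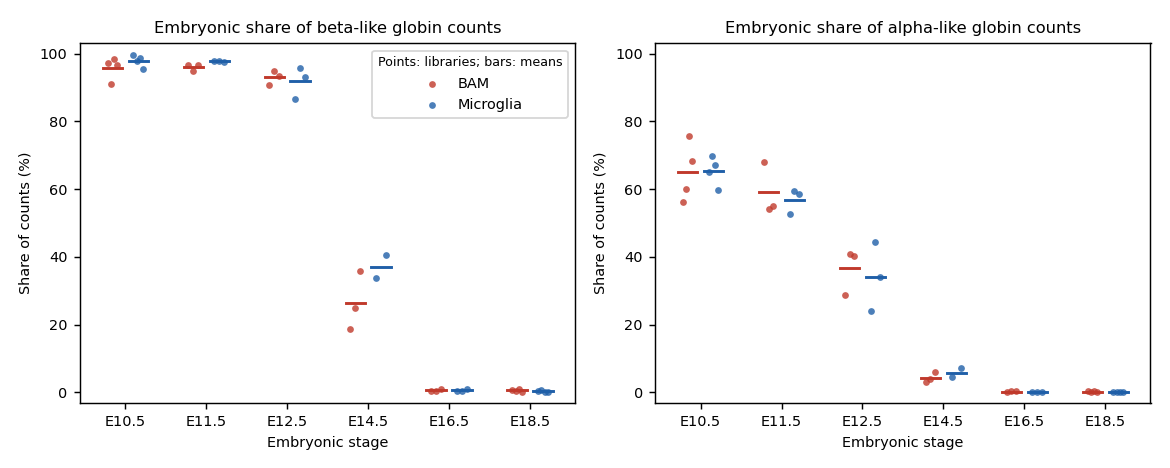
Embryonic share of beta-like counts and of alpha-like counts, in percent, in each library at the 6 stages, with BAM left of microglia and lines through the group means. The beta-like share stays at 86.6% or more to E12.5 and is at 1.14% or less from E16.5, and the alpha-like share starts near 65% and is lower than the beta-like share at every stage up to E14.5.

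Within the embryonic beta-like genes, the share of Hbb-bh1 fell before the adult beta-like genes took over, though Hbb-y held the larger part in every library. From E10.5 to E12.5 the level of Hbb-bh1 overlapped between stages in both populations, while Hbb-y was highest at E12.5. Hbb-bh1 made up 33.2, 23.7, 29.3 and 39.7% of embryonic beta-like counts in the BAM libraries of E10.5, 19.8, 11.4 and 19.8% at E11.5, 3.10, 7.01 and 6.30% at E12.5, and 4.44, 1.41 and 0.234% at E14.5. In microglia it made up 33.8, 32.5, 27.9 and 35.4% at E10.5, 16.2, 12.9 and 20.6% at E11.5, 3.32, 8.04 and 6.94% at E12.5, and 0.908 and 0.907% at E14.5. In each population E10.5, E11.5 and E12.5 formed a descending order with no overlap between stages. From E16.5 on a group held at most 46 counts of Hbb-y and 6 of Hbb-bh1, too few for a share.

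Within the adult beta-like genes, Hbb-bs took a growing part from E11.5 to E16.5. It made up 48.6 ± 4.19%, 69.0 ± 0.694%, 76.6 ± 0.645% and 80.2 ± 2.93% of adult beta-like counts in BAM from E12.5 to E18.5, and 58.5 ± 13.2%, 73.7 ± 1.56%, 78.6 ± 1.29% and 79.6 ± 1.26% in microglia. At E11.5, on 30 to 116 counts per library, it made up at most 15.7% in BAM and 36.1% in microglia, and at E10.5, on 4 to 70 counts per library, at most 67.1 and 65.8%. The BAM libraries of E12.5, E14.5 and E16.5 followed each other without overlap, and so did the microglia libraries. In both populations the E18.5 libraries overlapped those of E16.5. These shares rest on the split of reads between near-identical genes.

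**Figure D3:**
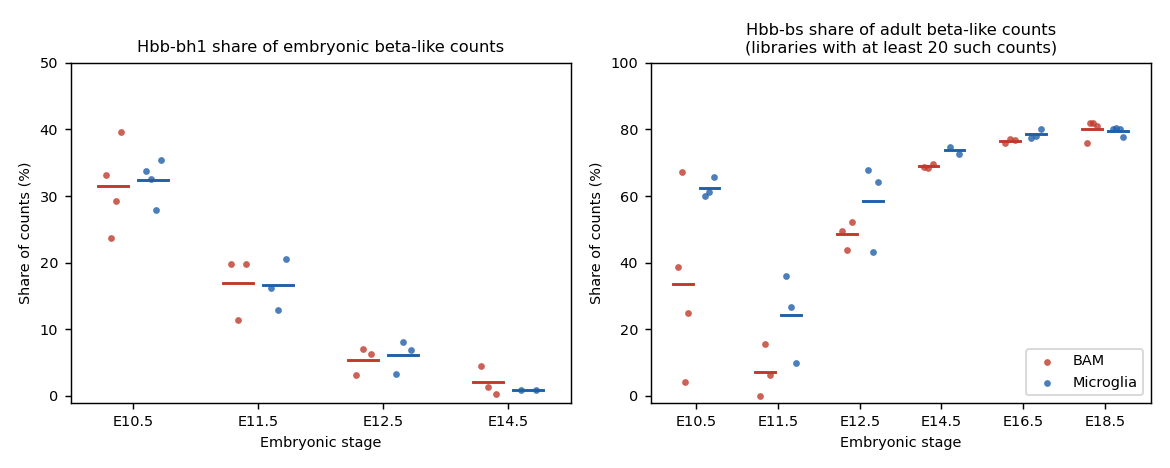
Left, Hbb-bh1 as a percentage of embryonic beta-like counts per library from E10.5 to E14.5. Right, Hbb-bs as a percentage of adult beta-like counts in libraries with at least 20 such counts. BAM is left of microglia at each stage, and Hbb-bh1 comes down from between 23.7 and 39.7% at E10.5. Hbb-bs goes up from E11.5 to between 75.8 and 81.9% at E18.5.

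Divided by exon length, the alpha-like share of all globin counts averaged 25.1 ± 0.577%, 25.1 ± 4.48%, 25.2 ± 5.07%, 44.3 ± 4.37%, 44.3 ± 0.415% and 46.7 ± 1.36% in BAM in order of stage. In microglia it averaged 24.9 ± 2.08%, 26.0 ± 1.51%, 26.5 ± 5.48%, 37.4 ± 0.871%, 45.7 ± 0.534% and 48.1 ± 3.18%. All libraries up to E12.5 lay at 32.8% or less and all later ones at 36.8% or more, and the group means were nearest to equal amounts of the 2 chains at E18.5. The per-length levels turned over in the same way. At E10.5 the order in BAM was Hbb-y (41.4 ± 16.4 CPM per kilobase), Hbb-bh1 (19.7 ± 7.57), Hba-x (13.3 ± 6.58) and Hba-a1 (6.53 ± 1.07); of these neighbours, the libraries overlapped between Hbb-bh1 and Hba-x alone. At E18.5 it was Hbb-bs (72.0 ± 24.7), Hba-a1 (64.7 ± 19.6), Hbb-bt (19.0 ± 4.83) and Hba-a2 (15.4 ± 5.94), and the libraries overlapped within the first pair and within the second pair. Microglia had the same first 4 genes in the same order at each of the 2 stages. The per-length shares and orders also rest on how reads shared within the adult pairs were counted, which is not given.

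The populations differed in the total amount of globin RNA over the stages. Summed over the 7 genes, the BAM libraries held 54.9, 39.7, 87.7 and 50.9 CPM at E10.5, 62.8, 92.9 and 58.5 at E11.5, and 294, 253 and 142 at E12.5. They held 74.3, 228 and 281 at E14.5, 146, 180 and 81.4 at E16.5, and 102, 191, 104 and 130 at E18.5. The E12.5 mean was the highest of BAM, but its libraries overlapped those of E14.5, E16.5 and E18.5.

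Microglia held 52.3, 48.1, 138 and 45.2 CPM at E10.5, 91.5, 161 and 168 at E11.5, and 558, 698 and 658 at E12.5. They held 309 and 419 at E14.5, 359, 521 and 239 at E16.5, and 160, 238, 224 and 146 at E18.5. In microglia the E12.5 libraries lay above those of every other stage. The populations did not overlap at E12.5, E14.5 and E16.5, where all microglia libraries were higher, and they overlapped at E10.5, E11.5 and E18.5.

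Averaged over the 6 stages, BAM held 0.513 times the summed globin level of microglia (difference −0.96 on the log2 scale, permutation test within stages, two-sided, p = 4e-05). At single stages no test passed (exact permutation p of 0.714, 0.2, 0.1, 0.2, 0.1 and 0.114 in order of stage), and with 3 against 3 libraries the smallest possible p is 0.1. Within library series R8 the ratio was 0.449 (permutation p = 0.00016) and within R10 it was 0.665 (permutation p = 0.0506). By the same permutation test the adult sum differed by −0.94 (p = 4e-05) and the embryonic sum by −0.84 (p = 0.00578). The adult sum passed within R8 (−1.15, permutation p = 0.00018) and not within R10 (−0.55, permutation p = 0.0511). The embryonic sum passed in neither series (R8 −0.91, permutation p = 0.0568, and R10 −0.43, permutation p = 0.0705). At E18.5, on few counts, the embryonic sum pointed the other way (0.54, exact permutation p = 0.571).

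By gene, over the mean of the stages, 4 of 7 globins were called lower in BAM and none higher, against 28.2% of all tested genes called in either direction, and 3199 of the 22061 lower. They were Hba-a1 (−0.98 ± 0.15, adjusted p = 1.47e-06), Hba-a2 (−0.96 ± 0.20, adjusted p = 0.000184), Hbb-bs (−0.97 ± 0.27, adjusted p = 0.00515) and Hbb-y (−0.85 ± 0.26, adjusted p = 0.0118). Hba-x stood at −0.55 ± 0.31 (adjusted p = 0.213) and Hbb-bt at −0.39 ± 0.19 (adjusted p = 0.128), and Hbb-bh1, at 0 in a group of each population, has no fold over the stages. The median of the 6 folds was −0.90, against −0.02 for all tested genes. None of the 4 calls was lost by leaving out any 1 library. Within R10 alone none passed (Hba-a1 −0.77, adjusted p = 0.0911), and within R8 Hbb-y did not (−0.84, adjusted p = 0.133). Hbb-bt passed within R8 (−0.93, adjusted p = 0.00159) and pointed the other way within R10 (0.33, adjusted p = 0.884).

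At E12.5 the calls were Hba-a1 (−1.62 ± 0.37, adjusted p = 0.00233), Hbb-bs (−1.92 ± 0.58, adjusted p = 0.0306) and Hba-a2 (−1.58 ± 0.49, adjusted p = 0.0338), 3 of 7 lower against 4.42% of all genes. The median of the 7 log2 fold changes was −1.58. Hbb-bs lost its call without replicate 2 or 3 of BAM E12.5 or replicate 1 of microglia E12.5 (−1.77, −1.63 and −1.30), with DESeq2 (−1.93, adjusted p = 0.0881) and with the 2 groups fitted alone (−1.89, adjusted p = 0.0745), and Hba-a2 without any BAM library or replicate 2 or 3 of microglia (−1.67 to −1.34). Only Hba-a1 was called without replicate 3 of BAM E12.5, and without replicate 1 of microglia E12.5 4 globins were, Hbb-bh1 (−2.02), Hba-x (−1.84), Hba-a1 and Hba-a2. At E16.5 Hba-a1 was called lower (−1.48 ± 0.37, adjusted p = 0.00384), 1 of 7 against 6.74% of all genes. It was called without any 1 library of that stage, and Hbb-bt (−1.51) and Hba-a2 (−1.62) were called as well without replicate 3 of microglia E16.5, and Hbb-bh1 without replicate 1. At E10.5, E11.5, E14.5 and E18.5 no globin was called, against 4.48%, 6.66%, 7.18% and 15.5% of all genes called in either direction. Those with an unadjusted p under 0.05 numbered 1 at E10.5, 3 at E11.5, 1 at E14.5 and 1 at E18.5. DESeq2 called 0, 1, 0 and 0 lower at these stages. A replicate block of adjacent library numbers, which the labels do not give as pairs, called Hbb-bt higher in BAM at E10.5. It called Hbb-y, Hba-a1 and Hba-a2 lower at E11.5, Hba-a1 lower at E18.5, and more globins lower at E12.5 and E16.5 than the main fit. Without replicate 3 of BAM E14.5, Hbb-y was called lower at E14.5 (−2.04, adjusted p = 0.0194).

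**Figure D4:**
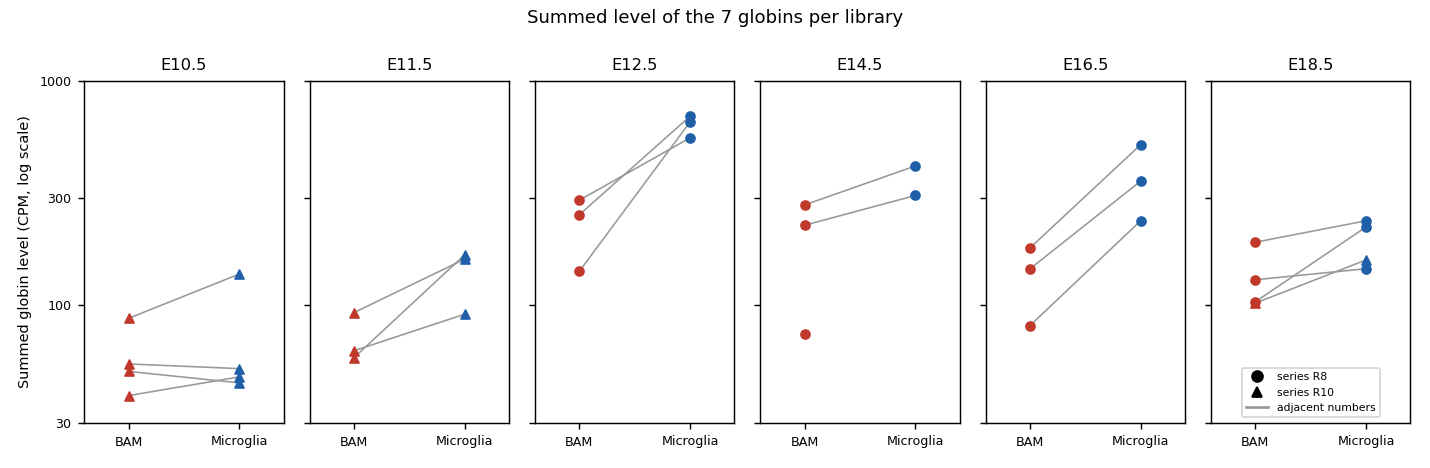
Summed level of the 7 globins per library (CPM, log axis), one panel per stage, BAM left of microglia, with lines joining libraries of adjacent library numbers and symbols for the library series. All microglia libraries lie above all BAM libraries at E12.5, E14.5 and E16.5.

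**Figure D5:**
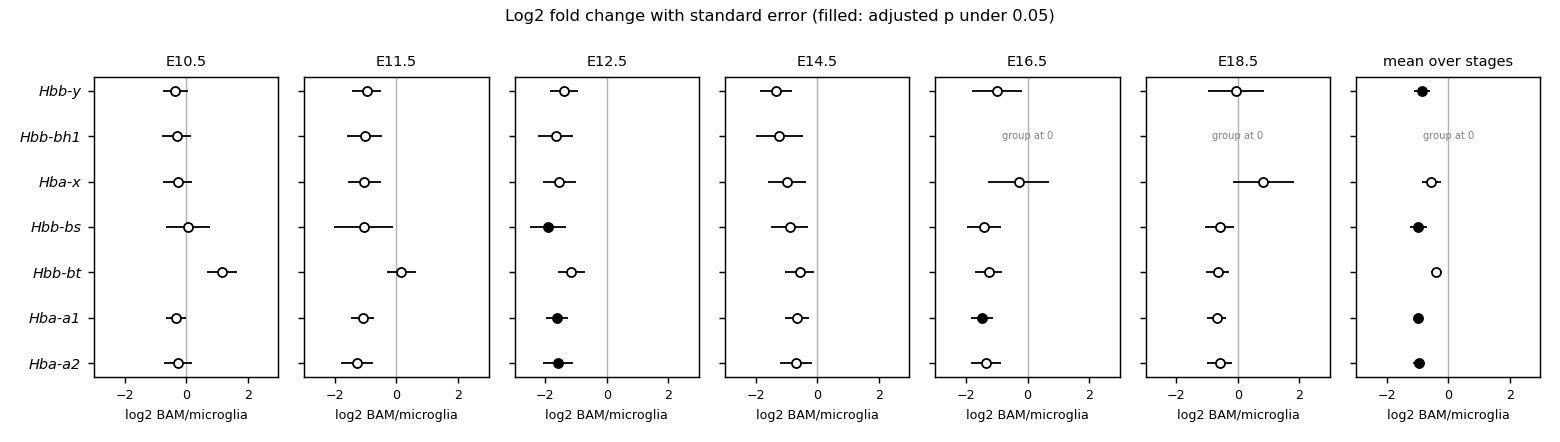
Log2 fold change of each globin, BAM over microglia, with a panel for each stage and 1 for their mean, with standard errors from edgeR. Filled points passed an adjusted p of 0.05, all of them lower in BAM, and values below 0 are lower in BAM.

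Other red-cell genes were counted over lists of genes with a known role. In BAM against microglia over the stages, 13.7% of all tested genes were called higher and 3199 of 22061 lower, and the counts of these lists stand beside those. Of 9 erythroid markers other than globins, 1 was called higher in BAM over the stages, near the share of all genes, and 4 lower. The one called higher was Epor, the erythropoietin receptor (2.05 ± 0.13, adjusted p = 3.25e-15), at group means of 32.7 to 130 CPM in BAM and 4.92 to 34.6 in microglia. Those called lower included Slc4a1, the anion exchanger of the red-cell membrane (−1.16 ± 0.37, adjusted p = 0.0150), and Alas2, the erythroid enzyme that starts haem synthesis (−0.49 ± 0.18, adjusted p = 0.0417). Hemgn, an erythroid nuclear protein, was also called lower, but had a group with 0 counts and has no fold here.

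The summed level of the 9 markers, of which Epor was the largest part in BAM, ran from 38.1 to 161 CPM in BAM and from 10.1 to 134 CPM in microglia. Gata1, the erythroid transcription factor, was at 0 in all BAM libraries of E16.5 and E18.5, and Klf1, the activator of adult beta globin, had no group mean above 1.02 CPM. Slc4a1 had its highest group means at E12.5, at 13.4 CPM in BAM and 31.6 CPM in microglia, the stage of the highest summed globin level. At the same stage the 7 platelet and megakaryocyte markers also had their highest sums on average, 17.5 to 23.5 CPM in BAM and 23.0 to 44.6 CPM in microglia, against 4.30 to 19.8 and 4.04 to 15.2 CPM at the other stages. The 7 granulocyte and monocyte markers had sums of 0.452 to 15.2 CPM in BAM and 8.04 to 150.5 CPM in microglia. Of the 6 of them that were tested, 2 were called lower in BAM over the stages and none higher, the monocyte receptor gene Ccr2 (−3.82 ± 0.36) and Plac8 (−3.04 ± 0.32). Of 6 endothelial markers 1 was called lower, Pecam1 (−1.59 ± 0.13), and the sums were 29.0 to 275 CPM in BAM and 63.9 to 182 CPM in microglia. At E18.5 against E10.5, 4 of 6 endothelial markers were called higher in BAM, against 22.8% of all genes, and 3 of 6 in microglia, against 20.9%. Among them Cldn5 rose by 5.69 ± 0.91 in BAM and 6.20 ± 0.96 in microglia and Kdr by 3.47 ± 0.52 in BAM and 2.20 ± 0.49 in microglia. Between E11.5 and E12.5, also the step between library series, Kdr rose in BAM (1.98 ± 0.57), where 2.79% of all genes were called higher. Kdr, Cldn5 and Emcn rose in microglia (1.93 ± 0.56, 3.93 ± 1.00 and 3.86 ± 1.25), where 5.83% of all genes were. Of the 6 tested granulocyte and monocyte markers, Plac8 fell by 5.20 ± 0.75 in BAM and 4.30 ± 0.68 in microglia at E18.5 against E10.5, and Mpo by 7.02 ± 1.49 in microglia. The 3 lymphoid markers summed to 1.11 CPM at most in any library. The part of these cells in the globin results was not tested.

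Among 7 erythroid transcription factors, 2 were called in BAM over the stages, both lower, against 28.2% of all genes called in either direction: Tal1 (−0.89 ± 0.13, adjusted p = 6.11e-07) and Nfe2 (−1.49 ± 0.39, adjusted p = 0.00291). Of the 16 tested genes of the red-cell membrane and skeleton, 5 were called higher, against 13.7% of all genes, and 4 lower. The 5 were Gypc (2.56 ± 0.14), Ank1 (1.498 ± 0.40), Tmod1 (1.26 ± 0.38), Sptb (1.03 ± 0.30) and Epb41 (0.17 ± 0.06), and the 4 included Slc4a1 as well as Kel and Ermap, which had groups of few or 0 counts and have no fold here. Gypc, a glycophorin, and Epb41, the band 4.1 protein, are also expressed outside red cells. The median log2 fold change over the 10 genes of this list with more than 3 counts in every group was 0.14, against −0.02 for all tested genes.

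Haem synthesis and mitochondrial iron import had 2 genes called higher and 2 lower of 10, against 28.2% of all genes called in either direction. Higher in BAM were Slc25a37, the mitochondrial iron importer mitoferrin (0.41 ± 0.10, adjusted p = 0.00184), and Alad (0.32 ± 0.11, adjusted p = 0.0238), and lower were Alas2 and Uros (−0.23 ± 0.09, adjusted p = 0.0464). Alas2 also rose with stage, by 2.81 ± 0.43 in BAM and 3.47 ± 0.44 in microglia at E18.5 against E10.5 (adjusted p = 2.12e-06 and 9.10e-08). Its group means were 3.397, 4.46, 10.6, 18.3, 24.3 and 24.6 CPM in BAM and 2.82, 3.87, 24.7, 27.0, 61.7 and 30.4 CPM in microglia. Of 12 further red-cell genes tested, 4 were called higher in BAM over the stages, against 13.7% of all genes, and 2 lower. The higher ones included Epor, the urea transporter gene Slc14a1 (2.98 ± 0.22) and Tfrc, the transferrin receptor (0.86 ± 0.09), and the lower ones Bpgm, the enzyme that makes the bisphosphoglycerate of red cells (−0.56 ± 0.11).

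Of 9 genes that take up and break down haemoglobin and haem, 6 were called higher in BAM over the stages, against 13.7% of all genes, 1 was called lower and 2 were not called. The 6 were the haemoglobin scavenger receptor Cd163 (5.01 ± 0.39), the biliverdin reductases Blvrb (2.18 ± 0.13) and Blvra (1.63 ± 0.11), the iron exporter Slc40a1 (1.84 ± 0.12), the haem transporter Slc48a1 (0.95 ± 0.05) and the haem oxygenase Hmox1 (0.91 ± 0.10). The haptoglobin gene Hp was called lower and was at 0 in a BAM group, and Spic, a transcription factor of macrophages that recycle red cells, stood at −0.77 ± 0.56 (adjusted p = 0.368). Hmox1 fell with stage in both populations, by 1.27 ± 0.21 in BAM and 0.89 ± 0.20 in microglia at E18.5 against E10.5, while Cd163 in BAM went up to a mean of 1261 CPM at E18.5, against 1.95 CPM at E10.5.

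Of 9 regulators known from red cells to act on globin switching, 3 were called higher and 4 lower in BAM at E18.5 against E10.5, where 22.8% of all genes were called higher and 14.8% lower. In microglia 3 were called higher and 3 lower, against 20.9% and 14.4% of all genes. Lin28b, which is known to favour fetal globin in human red cells, fell by 3.03 ± 0.31 in BAM (adjusted p = 1.08e-09) and by 3.13 ± 0.31 in microglia (adjusted p = 6.57e-10). Its group means were 106, 66.3, 32.6, 18.03, 12.49 and 13.3 CPM in BAM and 130, 52.7, 35.1, 18.8, 14.6 and 14.3 CPM in microglia. Bcl11a, the repressor of embryonic and fetal globin genes, had its highest means at E14.5, at 44.3 CPM in BAM and 43.7 CPM in microglia, and was called at E18.5 against E10.5 in BAM (2.48 ± 0.58, adjusted p = 0.000947) with microglia at −0.16 ± 0.55 (adjusted p = 0.873). The difference between these changes was 2.64 ± 0.80 (BAM minus microglia, adjusted p = 0.0377). Sox6, which acts with Bcl11a, rose by 4.99 ± 1.14 in BAM and by 5.98 ± 1.29 in microglia, whose E10.5 group held 4 counts. Zbtb7a, another repressor, rose by 0.60 ± 0.16 and 0.63 ± 0.16 in BAM and microglia, and Myb fell by 1.41 ± 0.53 and 2.09 ± 0.54. These genes are also expressed in other cells, and whether any of this RNA came from red cells was not tested.

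Other globins were near the limit of detection. Myoglobin (Mb) had 0 counts in all 39 libraries, and Hbb-bh2 had 8 counts in microglia of E10.5 and none elsewhere. Of the 3 further globins that were tested, Cygb (cytoglobin) was called higher in BAM over the stages and was at 0 in 2 microglia groups, and Ngb (neuroglobin) and Hbq1b were not called.

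Over the 39 libraries, the profile most like the mean log2 level of the adult globins, among 15610 named genes, was that of Alas2 (Pearson r = 0.945), followed by Gria2 (0.944), Myt1l (0.939), Mapt (0.931) and Ccdc184 (0.927). Nearest to the embryonic globins were Dcakd (0.853), Emid1 (0.846), Rbm10 (0.832), Igf2bp1 (0.826) and Glrx (0.822). These libraries share stages, populations and library series, so the values describe a common course over them. After the group means were taken out, the nearest to the adult globins were Magel2 (0.723), Aspn (0.698) and Syt5 (0.689), and Alas2 was no longer among the first 5. Nearest to the embryonic globins were then Rps24 (0.726), Rps20 (0.713) and Rps10 (0.695), all genes of ribosomal proteins. The embryonic and adult globin levels deviated from their group means with r = 0.401 over the 39 libraries.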

How the data were processed

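Raw counts per gene, as deposited by the authors in 1 table of 39 libraries, were used. Per the submitters' processing notes STAR was the aligner, GRCm38 the build and featureCounts the counter; versions, strandedness and the treatment of shared reads are not given in the sources used here. Per the labels' protocols RNA (2 ng, median RIN 7.7) was amplified by a modified SMART-seq2 and sequenced as paired 151-base reads. Even values prevailed among low counts (49977 cells of the table held 2 and 21280 held 1), so a count is not 1 independent molecule. CPM is counts per 1000000 counts of the library. Tests used edgeR 4.0.16 in R 4.3.3 (quasi-likelihood, TMM factors of 0.898 to 1.113, filterByExpr, 12 group coefficients, 27 residual degrees of freedom) with Benjamini-Hochberg adjustment over 22061 genes, called at an adjusted p of 0.05. DESeq2 1.42.0 was an alternative. Shares and summed levels were tested by permutation (SciPy 1.17.1, two-sided; 100000 draws where not exact). A group at 0 was given a bound of 3 counts, which like any such floor covers counting error only. It takes each count as independent, so, given the even values, the folds printed as at least a value may be too large. On simulated counts edgeR recovered 38.9% of 2-fold and 59.8% of 4-fold changes between populations over the stages (21934 genes), and 20.4% and 29.3% at E18.5 against E10.5 in microglia (21947 genes). The changed genes were drawn at random from all tested genes, with a level otherwise equal in all groups. These rates are therefore not those of the globins. Members, lists, the replicate numbering in accession order and the rule for named genes (all 7 globins, and up to 4 genes of each list by smallest p plus defining red-cell genes, with further members named after their values were seen) were chosen with earlier results of these data known. Values of 2 listed genes are not reported here.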

Additional observations from a re-analysis of the deposited data

Results flagged for a closer look

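Of 40 groups of 4 libraries' values, 5 held a library far from the other 3, by Dixon's test at the 95% level, which chance alone passes in about 1 of 20 groups. They came from 2 libraries. Replicate 3 of microglia E10.5 held 67.6 CPM of Hbb-y, against 19.7 to 22.4 in the other 3 libraries, 26.2 CPM of Hbb-bh1, against 10.498 to 11.4, and 12.1 CPM of Hba-a1, against 4.24 to 5.34. Its summed globin level was 138 CPM, against 45.2 to 52.3 CPM. Replicate 3 of BAM E18.5 held 0.619 CPM of Hbb-y, against 0.200 to 0.268 CPM in the other 3 libraries.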

How the results depend on the processing

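The direction and calls of all 7 globins at E18.5 against E10.5 held under each alternative run and without any 1 library; series R10 has 1 library per population at E18.5, whose spread is assumed to be that of the other groups, and R8 has none at E10.5. Over the mean of the stages, DESeq2 called 5 globins lower in BAM and series R10 alone 0; there the summed level differed by −0.59 (permutation p = 0.0506) and Hbb-bt by 0.33 (adjusted p = 0.884), and the cause was not tested. With no expression filter, globins called lower in BAM numbered 1 at E11.5, 5 at E12.5, 1 at E14.5 and 2 at E16.5. DESeq2 called 1 at E11.5 and 4 at E16.5, RLE factors 2 and series R8 alone 4 at E16.5, and the stage's groups fitted alone 4 at E16.5 and 1 at E18.5. Leaving out a library gave 1 to 4 at E12.5, 0 to 1 at E14.5 and 1 to 3 at E16.5. At E18.5 against E12.5, DESeq2 or no filter called 2 globins higher in BAM, and leaving out a library gave 1 to 2 in BAM and 0 to 1 in microglia.

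The labels pair no samples. With a replicate block of adjacent library numbers, 1 globin was called higher in BAM at E10.5, and 3, 7, 5 and 1 lower at E11.5, E12.5, E16.5 and E18.5. Over all tested genes, deviations from the group means correlated within these 19 pairs at r = 0.000 to 0.194 (median 0.074), over 0.1 in 6 pairs. Still, 15 of the 19 microglia libraries correlated best with the BAM library of the adjacent number, out of the 3 or 4 BAM libraries of their stage. For the summed globin level the deviations gave r = 0.565 (permutation p = 0.0107, 0.0321 adjusted over 3 relations) and rho = 0.568 (p = 0.0129). The relation kept its sign but did not pass without the 2 pairs farthest from the median (r = 0.403, p = 0.107) or in the 11 pairs of R8 (0.453, p = 0.161). With so few pairs this does not decide whether the relation is absent there. In the 8 pairs of R10 r was 0.768 (p = 0.0279) and rho 0.381 (p = 0.361). BAM held the lower sum in 17 of 19 pairs.

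Within 1 series the groups are too small for an exact test of a share between stages to pass. E18.5 minus E10.5 in R10, the beta-like embryonic share differed by −95.1 and −97.2 percentage points in BAM and microglia and the alpha-like share by −64.7 and −65.2 (exact permutation p = 0.2, the smallest possible). E18.5 minus E12.5 in R8 these were −92.4, −91.5, −36.4 and −34.2 (exact permutation p = 0.1, the smallest possible). Without 1 library the E18.5 minus E12.5 beta-like difference ran from −93.6 to −91.4 in BAM and −94.0 to −89.5 in microglia, and the alpha-like one from −40.3 to −34.3 and −39.2 to −29.0. BAM minus microglia, the beta-like share without Hbb-bt was 0.198 at E11.5 (exact permutation p = 0.6). With Hbb-bt kept and 1 library left out, the beta-like difference ran from −1.38 to 3.10 at E12.5 and −0.0961 to 0.237 at E16.5. The alpha-like difference ran from −3.89 to 2.64 at E10.5, −2.29 to 4.64 at E11.5, −2.59 to 7.57 at E12.5 and 0.118 to 0.296 at E18.5 (exact permutation p = 0.0286 without replicate 4 of BAM). Depth limits the embryonic genes from E16.5 on, where groups held few counts or 0.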
